A study of Mus musculus with 8 samples.

Results

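Intergenic noncoding RNAs of Hepa 1-6, a mouse hepatoma cell line, were compared between cells labelled as G9a knockout and wild-type cells. The members were the genes that GENCODE mouse release 21 types as lincRNA (long RNAs transcribed from between protein-coding genes) that reached a mean of 2 CPM over the 8 libraries, where CPM is the count in each 1e+06 counts of a library. Of 47434 genes summed from the deposited transcript counts, 3548 were lincRNA genes, 1159 of these had at least 1 count, and 100 passed the threshold. The 5 names that the rule set aside removed none of them. They were chosen by their mean level over both genotypes, not by the difference. Of the 100 genes, 84 had a mean of at least 2 CPM in each group, 15 in the knockout alone and 1 in the wild type alone. The 16 that passed through 1 group are the ones in which a difference is favored by the rule. The last genes inside the threshold were Gm26767 and Gm16907, each at 2.0 CPM, and the first outside were 2810455O05Rik at 1.94 CPM and Gm44275 at 1.90 CPM.

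There were 4 libraries of Hepa 1-6 cells labelled as G9a knockout and 4 of wild-type Hepa 1-6 cells, all from poly-A selected RNA. G9a, encoded by Ehmt2, methylates histone H3 at lysine 9, a mark of silenced chromatin. The labels name no guide, clone, culture or passage, so each p-value rests on the spread among these libraries, and that spread may be technical. Features of 1 knockout clone and effects of the knockout cannot be told apart.

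Long intergenic RNAs act, where a role is known, as scaffolds of nuclear bodies, as decoys for RNA-binding proteins or microRNAs, as hosts of small RNAs cut from their introns or exons, or through the act of their own transcription. Most are weakly expressed and restricted to few cell types. H3K9 methylation by G9a silences genes in euchromatin. Of the members, 3 were classed as microRNA hosts, and the mature products below show what their transcripts can yield. Each member was counted in the first class that held it, and those in earlier classes were not checked for microRNAs. The sequences are RefSeq's (GRCm38.p6), printed 5′ to 3′ with the seed, bases 2 to 8, in capitals. Poly-A RNA-seq measures the host transcript and not the microRNA.

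Mir17hg, the host of the miR-17-92 cluster (chr14:115042879-115046727, plus strand), holds products with 4 different seeds. The miR-17 and miR-20a pair and the miR-19a and miR-19b pair each share a seed.
mmu-miR-17-5p: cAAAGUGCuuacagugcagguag
mmu-miR-20a-5p: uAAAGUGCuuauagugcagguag
mmu-miR-18a-5p: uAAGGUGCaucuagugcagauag
mmu-miR-19a-3p: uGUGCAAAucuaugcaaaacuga
mmu-miR-19b-3p: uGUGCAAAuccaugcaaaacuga
mmu-miR-92a-3p: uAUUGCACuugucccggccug
The span of 6720427I07Rik (chr13:48532905-48546500, minus strand) holds let-7 genes, whose products share 1 seed.
mmu-let-7a-5p: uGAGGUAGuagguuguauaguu
mmu-let-7f-5p: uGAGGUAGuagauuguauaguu
mmu-let-7d-5p: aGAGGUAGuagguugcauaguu
Mir155hg (chr16:84703167-84715245, plus strand) holds a single microRNA known from activated immune cells.
mmu-miR-155-5p: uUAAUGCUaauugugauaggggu

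Library totals lay between 58256100 and 75025236 counts, and a median of 340.5 counts stood behind a member in a library. A count of 0 in a library allows up to 3 counts, or 0.04 to 0.0515 CPM, for counting error only. Ehmt2 had 117, 117, 120 and 119 TMM-normalized CPM in the knockout libraries, against 345, 307, 298 and 307 CPM in the wild type (log2 fold change -1.41 ± 0.05, SE; edgeR quasi-likelihood test, adjusted p = 3.82e-10). Ehmt2 RNA was thus lower but still present in the libraries labelled knockout. Of 14 hepatocyte markers, 7 were at 0 in every library, Alb, Ttr and Hnf4a among them. The hepatocyte list summed to 14 to 17.1 CPM in knockout and 16.5 to 19.8 CPM in wild-type libraries. Fibroblast markers summed to 424 to 454 CPM in knockout and 107 to 117 CPM in wild-type libraries, nearly all of it Col3a1, with Lum at 0. Pdgfra and Pdgfrb, on the same list, had log2 fold changes of -0.60 and -1.85 and did not pass. Afp, a fetal liver and hepatoma marker, averaged 133 CPM in knockout and 5.77 CPM in wild-type libraries. On the same list, Gpc3 and Dlk1 were at 0 in both groups. Igf2 averaged 0 CPM in knockout and 0.0151 CPM in wild-type libraries. Cdh5, an endothelial marker, averaged 4.32 CPM in knockout and 2.28 CPM in wild-type libraries. Pecam1 and Kdr, on the same list, did not pass. Ptprc, a leukocyte marker, averaged 1.08 CPM in knockout and 0.437 CPM in wild-type libraries. On its list, of macrophage markers, Csf1r (log2 fold change -0.94) and Cd68 (0.31) did not pass, and Adgre1 was at 0. The part of these differences in the results was not tested. In bulk RNA, fewer cells of a kind and less RNA per cell cannot be told apart.

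In the knockout 33 of the 100 were higher, 15 were lower and 52 did not pass (edgeR quasi-likelihood test, adjusted p under 0.05 over 15840 genes). Over all tested genes 47.2% were called, 23.6% higher and 23.6% lower. Among the 11116 tested genes at 2 CPM or more, 57.3% were called, 26.1% higher and 31.2% lower. The members' share of calls was thus near that of all genes and below that of genes at 2 CPM or more. The latter were not matched to the members for level. The knockout and wild-type libraries did not overlap for 44 of the 100, against 43.9% of all tested genes and 52% of those at 2 CPM or more. The members' median log2 fold change was 0.13, against 0.00 over all tested genes and -0.04 over those at 2 CPM or more. The rule favors a higher median, since the 15 members that passed through the knockout alone had a median of 0.90. For the 84 genes at 2 CPM in each group it was 0.04. Called changes of at least 2-fold were 12 rises and 3 falls. The rule favors such rises, since 7 of the 12 passed it through the knockout alone, and 5 of the 84 genes at 2 CPM in each group rose this far. Over all tested genes the shares were 7.89% and 2.36%, and over those at 2 CPM or more 4.73% and 1.63%. Of the 84 genes at 2 CPM in each group, 24 rose and 14 fell. Of the 15 that passed through the knockout alone, 9 rose. Of 49 members under 5 CPM 17 rose and 1 fell, 8 of these rises and the fall having passed through 1 group alone. Of 51 members at 5 CPM or more 16 rose and 14 fell. The shares of all genes in these ranges were not computed, so the split is not read as a trait of the members.

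**Figure D1:**
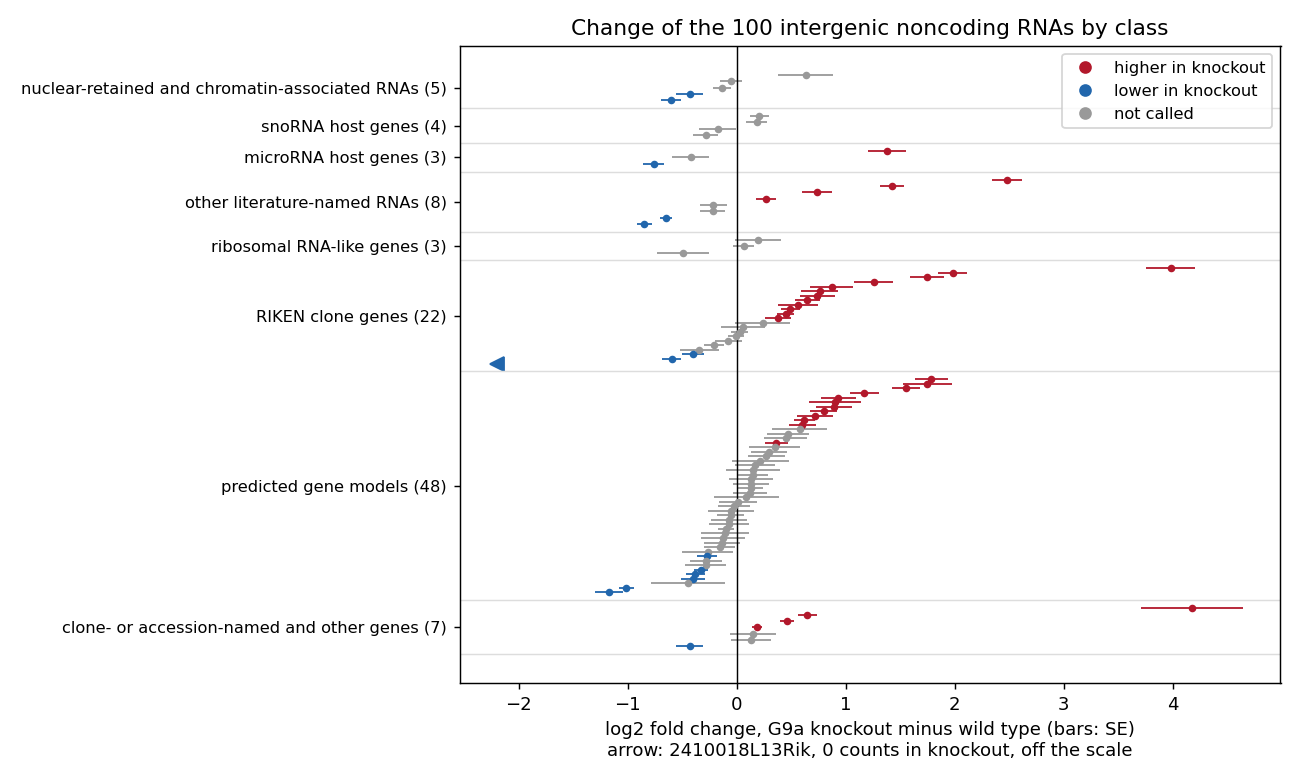
Log2 fold change (knockout minus wild type) with its SE for each of the 100 RNAs, in 8 classes with their sizes; colors give the edgeR call. Of the 12 called rises past 1, 8 come from RIKEN clone genes and predicted gene models, which hold 70 of the 100 RNAs, and none of the 4 snoRNA hosts or 3 ribosomal RNA-like genes is called.

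Of 5 nuclear-retained RNAs, Neat1 and Ftx fell and Malat1, Pvt1 and Jpx did not pass. Neat1, the RNA scaffold of paraspeckles, had 41.9, 47.7, 45.1 and 45.3 CPM in the knockout libraries and 80.6, 59.5, 60.3 and 72.9 CPM in the wild type. Every knockout library lay below every wild-type library (log2 fold change -0.60 ± 0.09, SE, n = 4 per group; edgeR, adjusted p = 9.62e-05), though a test against a 1.5-fold change was not passed. Its long isoform of 20771 bases, the one that builds paraspeckles, held 3220, 3245, 2667 and 3228 counts in the knockout and 4877, 3732, 4097 and 4315 counts in the wild type. The short isoform had 0 to 48 counts in knockout and 30 to 255 counts in wild-type libraries. It lies inside the long one, so the counts of both isoforms are uncertain. How well poly-A selection captured the long isoform of Neat1, or Malat1, was not tested. Among 17 genes for paraspeckle proteins, a list of other genes, 11 fell, 1 rose and 5 did not pass. Of genes at 2 CPM or more, a set not matched for level, 31.2% fell and 26.1% rose. Tardbp averaged 374 ± 11.0 CPM in knockout and 485 ± 18 CPM in wild-type libraries (SD, n = 4 each). Pspc1 averaged 54.8 ± 0.765 CPM in knockout and 67.5 ± 1.38 CPM in wild-type libraries. The gene that rose was Hnrnpa1 (log2 fold change 0.11 ± 0.04).

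Malat1, a highly abundant RNA of nuclear speckles that neighbors Neat1, was at 316, 402, 329 and 255 CPM in the knockout and at 343, 325, 339 and 347 CPM in the wild type. The knockout libraries fell on both sides of the wild-type ones, with an SD of 60.5 CPM against 9.57 CPM. Its log2 fold change of -0.05 ± 0.10 did not pass (edgeR, adjusted p = 0.692) and changed sign under 3 alternatives. Ftx and Jpx are noncoding genes of the X-inactivation center that are known to promote Xist expression. Ftx was at 5.64, 5.65, 7.05 and 4.71 CPM in the knockout and at 7.55, 8.44, 6.97 and 8.10 CPM in the wild type (-0.43 ± 0.13, edgeR, adjusted p = 0.0125), with 1 knockout library inside the wild-type range. Jpx averaged 2.96 ± 1.08 CPM in knockout and 1.91 ± 0.413 CPM in wild-type libraries and did not pass (log2 fold change 0.63 ± 0.25; edgeR, adjusted p = 0.0541). It was called higher under DESeq2 (adjusted p = 0.0305), with library totals (0.0339), with the median change of its neighboring coding genes (the local shift) taken out (0.0364) and without knockout replicate 3 (0.0390), knockout replicate 4 (0.0254) or wild-type replicate 3 (0.0388). Without knockout replicate 2, its highest library, the log2 fold change was 0.37. Pvt1, a gene beside Myc, averaged 9.55 ± 0.651 CPM in knockout and 10.5 ± 0.473 CPM in wild-type libraries and did not pass either (edgeR, adjusted p = 0.215). With the local shift taken out, Pvt1 was called lower (log2 fold change -0.28; edgeR, adjusted p = 0.0171).

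Of the 4 snoRNA hosts, whose introns carry small RNAs that guide modification of ribosomal RNA, none passed the edgeR test, and 3 passed under other settings. Snhg12 averaged 21 ± 1.88 CPM in knockout and 18.2 ± 1.76 CPM in wild-type libraries (log2 fold change 0.21 ± 0.09; edgeR, adjusted p = 0.0687). Snhg6 averaged 33.6 ± 4.04 CPM in knockout and 29.6 ± 3.68 CPM in wild-type libraries. Snhg20 was at 8.89 ± 2.27 CPM in knockout and 10.04 ± 1.99 CPM in wild-type libraries, and Epb41l4aos at 10.9 ± 1.02 CPM in knockout and 13.3 ± 2.06 CPM in wild-type libraries. Their log2 fold changes, from -0.28 to 0.21, went both ways. Epb41l4aos (edgeR, adjusted p = 0.0545) was called lower under DESeq2 (0.0412) and without knockout replicate 3 (0.0427), wild-type replicate 2 (0.0235) or wild-type replicate 3 (0.0352). Snhg12 was called higher under DESeq2 (0.0447), with library totals (0.0163), with the 5 CPM filter (0.0276), with the local shift out (0.0427) and without knockout replicate 1 (0.0241) or wild-type replicate 4 (0.0226). Snhg6 was called higher with library totals (0.0473), with the local shift out (0.0140) and under the replicate block (0.0392).

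The 3 members classed as microRNA hosts went different ways. Mir17hg had 10.4, 9.01, 11.5 and 10.7 CPM in the knockout libraries against 15.8, 19.6, 18.9 and 16.3 CPM in the wild type. No library of one group reached the other (log2 fold change -0.76 ± 0.10; edgeR, adjusted p = 2.79e-05). Mir155hg had 6.24, 5.68, 6.89 and 6.88 CPM in the knockout against 1.68, 2.29, 3.17 and 2.71 CPM in the wild type. The groups were again apart, now with the knockout above (1.38 ± 0.17; edgeR, adjusted p = 2.37e-05). Its nearest protein-coding gene Mrpl39, which encodes a mitochondrial ribosomal protein, lies 2331 bases away and was higher as well, at 74.3 CPM in knockout and 44.2 CPM in wild-type libraries (0.75). The let-7 host 6720427I07Rik averaged 2.62 ± 0.329 CPM in knockout and 3.51 ± 0.625 CPM in wild-type libraries and did not pass (-0.42 ± 0.17; edgeR, adjusted p = 0.0556). This host was called lower under DESeq2 (adjusted p = 0.0487), with the local shift out (edgeR, 0.00801) and without wild-type replicate 1 (edgeR, 0.0150).

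Among 8 other RNAs with a name in the literature, 4 rose, 2 fell and 2 did not pass. Lncenc1, known from naive mouse embryonic stem cells, had 13, 14.6, 12.6 and 10.7 CPM in the knockout libraries and 1.81, 2.27, 2.77 and 2.27 CPM in the wild type. The lowest knockout library was far above the highest wild-type library (log2 fold change 2.48 ± 0.14; edgeR, adjusted p = 1.69e-08). Enc1, its nearest protein-coding gene at 181936 bases, was at 46.1 CPM in knockout and 43.5 CPM in wild-type libraries and was not called (edgeR, adjusted p = 0.273). Lockd, transcribed downstream of the cell cycle inhibitor gene Cdkn1b, had 10.6, 11.2, 14.1 and 11.3 CPM in the knockout and 4.24, 4.60, 4.64 and 4.10 CPM in the wild type. All knockout libraries were higher (1.42 ± 0.11; edgeR, adjusted p = 2.69e-07). Cdkn1b, 3579 bases away, went the other way, with 37.0 CPM in knockout and 53.4 CPM in wild-type libraries (-0.53; edgeR, adjusted p = 2.32e-05). Bvht (Braveheart), known from the heart lineage of differentiating mouse stem cells, rose by 0.74 ± 0.14. Dubr, known from mouse muscle differentiation, rose by 0.27 ± 0.09 on the log2 scale (edgeR, adjusted p = 0.0242). That call was lost without knockout replicate 2 (adjusted p = 0.0692) and without wild-type replicate 3 (adjusted p = 0.0770). It was also lost with the local shift taken out (edgeR, adjusted p = 0.0676).

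The falls in this class were 2900097C17Rik and 1700020I14Rik, both abundant. The first is Norad in RefSeq, a cytoplasmic RNA that binds Pumilio proteins. It had 45.8, 48.7, 43.2 and 46.5 CPM in the knockout libraries and 95.4, 78.0, 76.4 and 81.8 CPM in the wild type. The knockout libraries all sat lower (log2 fold change -0.85 ± 0.07; edgeR, adjusted p = 4.91e-07). The second is Oip5os1 or Cyrano, known for triggering decay of the microRNA miR-7. It had 77.7, 77.2, 75.4 and 74.7 CPM in the knockout and 107, 123, 127 and 121 CPM in the wild type, again without overlap (-0.65 ± 0.06; edgeR, adjusted p = 6.76e-07). Gm14005, named Morrbid in RefSeq and known in mouse myeloid cells for holding down its neighbor Bcl2l11, averaged 5.57 ± 0.593 CPM in knockout and 6.46 ± 0.845 CPM in wild-type libraries (edgeR, adjusted p = 0.181). Mirt1 averaged 7.49 ± 1.02 CPM in knockout and 8.73 ± 0.899 CPM in wild-type libraries (edgeR, adjusted p = 0.144).

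**Figure D2:**
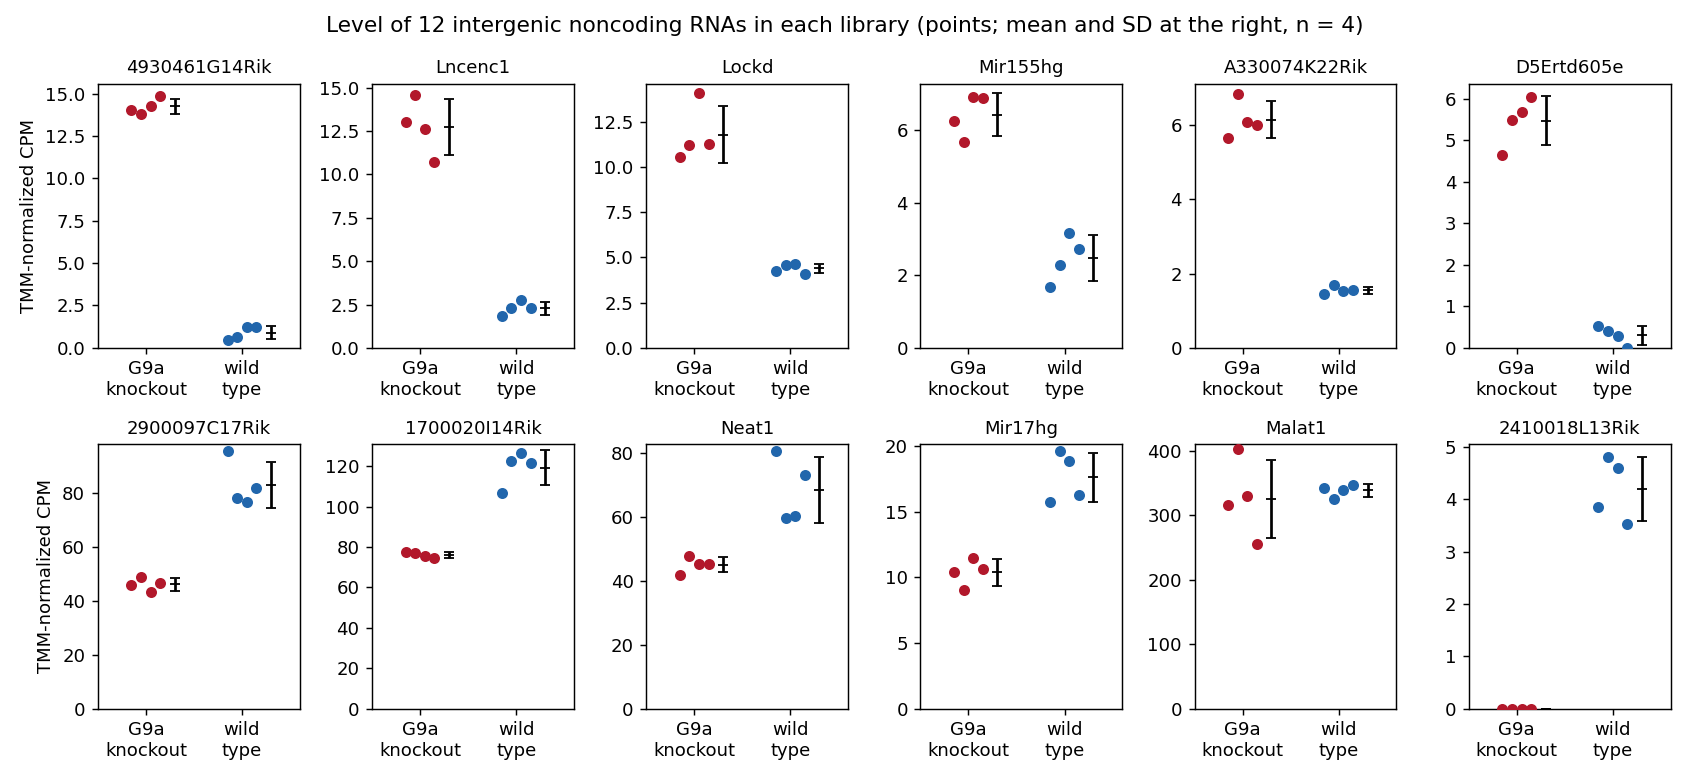
TMM-normalized CPM of 12 RNAs in the 4 knockout (left, red) and 4 wild-type (right, blue) libraries, with mean and SD beside the points; each panel has its own axis from 0. The groups do not overlap in any panel except Malat1.

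The largest rise was that of D5Ertd605e (chr5:147418601-147423044), which had 4.65, 5.49, 5.68 and 6.05 CPM in the knockout libraries and 0.522, 0.409, 0.275 and 0 CPM in the wild type. Every knockout library lay above every wild-type library, 1 of which had no count (log2 fold change 4.17 ± 0.47; edgeR, adjusted p = 8.2e-06). 4930461G14Rik (chr9:58455122-58469635) had 14, 13.8, 14.3 and 14.9 CPM in the knockout and 0.457, 0.666, 1.25 and 1.22 CPM in the wild type. Its knockout libraries were close together and far above every wild-type library (3.98 ± 0.23; edgeR, adjusted p = 1.84e-08). Insyn1, 18968 bases away, also rose, with 3.56 CPM in knockout and 0.728 CPM in wild-type libraries (2.28). After Lncenc1, given above, came A330074K22Rik, which had 5.65, 6.85, 6.07 and 6.00 CPM in the knockout and 1.45, 1.68, 1.54 and 1.56 CPM in the wild type (1.98 ± 0.13; edgeR, adjusted p = 5.62e-08). It starts 226 bases from the start of Gse1, transcribed in the opposite direction, which was not called (-0.09; edgeR, adjusted p = 0.540). The next rises were Gm20744 (1.79 ± 0.16), Gm3716 (1.75 ± 0.23), 4933404O12Rik (1.74 ± 0.15) and Gm19589 (1.56 ± 0.13). These 4 have no known role, and each had its groups apart. Bnc1, at 78095 bases the nearest coding gene of Gm20744, rose by 2.13. With 5930430L01Rik and Gm28875 added, chosen after their values were seen, and with Lncenc1, Lockd and Mir155hg from above, these are the 12 rises of at least 2-fold. Of the 12, D5Ertd605e, 4930461G14Rik, A330074K22Rik, Gm20744, Gm3716, 4933404O12Rik and 5930430L01Rik passed the threshold through the knockout alone. The rule thus favors a rise and separate groups in these genes.

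The largest fall was 2410018L13Rik (chr12:22953997-23010284), which had 0, 0, 0 and 0 counts in the knockout libraries and 236, 318, 317 and 222 counts in the wild type. With 3 counts per knockout library as the limit, it was at least 79.1-fold lower in the knockout. Its leading transcript shares sequence with 14 other genes, so its counts are uncertain. Of these, 2 had counts, both looked at after their values were seen: Gm5784 had 1 count over the knockout and 275 over the wild-type libraries, and Zfp125 had 1293 over the knockout and 1955 over the wild-type libraries. Gm14230 had 4.93, 7.03, 6.2 and 5.09 CPM in the knockout and 14.7, 13, 11.2 and 13.4 CPM in the wild type (log2 fold change -1.17 ± 0.13; edgeR, adjusted p = 5.98e-06). The start of Tgif2, which encodes a homeobox repressor, lies 115 bases away in the opposite direction, and it fell as well (-0.96). Gm7292 fell by 1.01 ± 0.07 on the log2 scale. Its leading transcript is covered in full by 2900097C17Rik, so reads of the 2 genes could have been shared. 1810058I24Rik, at 9.53, 12.7, 11.4 and 11.1 CPM in the knockout against 16.9, 17.3, 16.7 and 16.7 CPM in the wild type, fell by 0.60 ± 0.09 (edgeR, adjusted p = 9.44e-05). It is 1 of 6 members, among the 66 with a RefSeq gene, that RefSeq classes as protein-coding.

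Per length, ribosomal RNA-like genes and a copy of a coding gene were the most abundant. Gm42418 averaged 373 CPM per kilobase in knockout and 308 in wild-type libraries, AY036118 280 in knockout and 373 in wild type, Gm26825 139 in knockout and 165 in wild type, and Gm26917 109 in knockout and 98.9 in wild type. Gm42418, Gm26917 and AY036118 lie together on chromosome 17 in sequence like that of ribosomal RNA. None was called. Gm42418 spread widely, from 573 to 789 CPM in the knockout and from 378 to 933 CPM in the wild type. It was called higher without wild-type replicate 3 (log2 fold change 0.52; edgeR, adjusted p = 0.00374), and AY036118 was called lower without wild-type replicate 1 (-0.71; edgeR, adjusted p = 0.00333). Gm26825 is covered to 95.8% by sequence of Hspa8, a chaperone gene that averaged 3660 CPM in knockout and 4284 CPM in wild-type libraries, so its own fall (-0.33 ± 0.07) is uncertain. Below these came Snhg6, Malat1 (47.9 CPM per kilobase in knockout and 47.1 in wild type), 3300005D01Rik, AU020206, Epb41l4aos and Snhg12. 3300005D01Rik rose by 0.45 ± 0.08 and AU020206 by 0.19 ± 0.05, a call that was lost with the shift of its neighborhood taken out (0.0728; edgeR, adjusted p = 0.236).

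No difference in the summed level passed a test. All 100 RNAs took 0.305%, 0.305%, 0.292% and 0.257% of the counts in the knockout libraries and 0.241%, 0.287%, 0.328% and 0.281% in the wild type. The ranges overlap (means 0.290% ± 0.0227 in knockout and 0.284% ± 0.0355 in wild type, SD, n = 4 each; exact permutation test, two-sided, p = 0.83, where 0.0286 is the smallest possible). Of the members' counts, Gm42418 held 21.9%, Gm26917 12%, Malat1 11.5%, Gm26825 10.7% and AY036118 10.5%. Members spread more than coding genes: among wild-type libraries their SD was 14.2% of the mean (median), against 6.73% for coding genes at 2 CPM or more. The sets were not matched for level, and 49 members lay under 5 CPM.

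In all, 16 members had a leading transcript covered to at least 50% by another gene at 97% identity or more, 9 of them on the opposite strand of the same place and 6 elsewhere in the genome. Of the 16, 2 were called higher, 6 lower and 8 not. Whether the counting used strand is not given in the sources used here, so these values are uncertain. Without them 31 members rose and 9 fell.

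Position went along with part of the changes. Of the 100, 24 overlap a coding gene, 14 start within 1000 bases of a divergent coding start, and 40 have no coding gene within 10000 bases. The nearest coding gene was tested for 37 of the 48 called members and called for 25, in the same direction for 22 and the opposite for 3. For coding genes at 2 CPM or more, the same comparison gave 1722 of 2548. The 22 include D5Ertd605e, 4930461G14Rik, 4933404O12Rik, E230001N04Rik and Gm20744, which passed the threshold through the knockout alone. They also include Gm26718 and Gm26617, covered to 100% and 50.1% by sequence of that nearest gene. These were not set apart. Of 13 divergent pairs tested, overlapping ones such as 1700086O06Rik and Dele1 included, both genes were called in 4. Within each of these 4 pairs the direction was the same. The partner alone was called in 3, the RNA alone in 1 and neither in 5. Examples chosen after their values were seen are Msi2 (0.41), which rose with C030037D09Rik (0.74), and Zcchc2 (-0.33), which fell beside Gm7160 (-0.14, not called). Wider stretches moved too. The local shift, the median log2 fold change of the 20 nearest coding genes at 5 CPM or more, had a median of 0.39 over the 16 members on chromosome 5 and -0.60 over the 6 on chromosome 2. On chromosome 5, 7 rose and 2 fell, and on chromosome 2, 2 rose and 3 fell. The chromosome 2 members were not alike: 4 had local shifts from -0.72 to -0.57, and 3 of them fell. The other 2, Gm13387 (-0.0287) and Tmem250-ps (0.17), lay outside that range and rose.

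With the local shift taken out, 29 of the 33 rises and 11 of the 15 falls kept their call, 4 members were newly higher and 4 newly lower. 4930461G14Rik (4.04), D5Ertd605e (3.81) and Lncenc1 (2.57) changed little. 1700020I14Rik, whose neighborhood was lower by -0.72, was at 0.0736 ± 0.0554 and not called (edgeR, adjusted p = 0.314). 2900097C17Rik went to -0.22 ± 0.07 (adjusted p = 0.0199). Gm14005 turned to a rise of 0.43 ± 0.12 (adjusted p = 0.0130), and the let-7 host was called lower at -0.63 ± 0.17 (adjusted p = 0.00801).

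**Figure D3:**
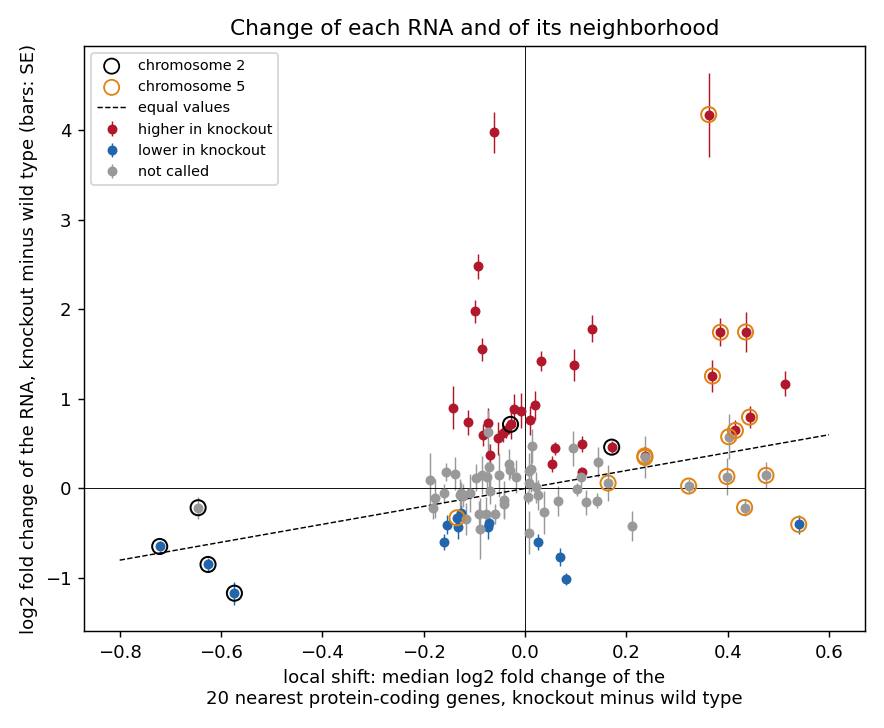
Log2 fold change of each RNA (vertical, bars SE) against the median log2 fold change of its 20 nearest protein-coding genes (horizontal), knockout minus wild type, without 2410018L13Rik. On chromosome 2, 4 members sit between -0.72 and -0.57 and 2 near 0, those on chromosome 5 at 0.39 (median), and 4930461G14Rik and Lncenc1 rise where the neighborhood is near 0.

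RefSeq promoter windows, 250 bases before to 50 after the start, were found for 52 members and lay within 1000 bases of a used transcript start for 45. The CG dinucleotide, the site of DNA methylation in mammals, was searched for as CG, which reads the same on both strands. At least 1 CG stood in 97.8% of these windows and in 99.8% of 8231 coding windows. The ratio of observed to expected CG had a median of 0.31 for the 22 risen members, 0.75 for the 6 fallen and 0.81 for the 17 not called. For coding genes it was 0.76, 0.82 and 0.81. A ratio under 0.4, a limit chosen after the values were seen, held for 12 of 22 risen, 0 of 6 fallen and 5 of 17 uncalled members. For coding genes it held for 13.6% of the risen, 5.45% of the fallen and 6.43% of the uncalled. Low ratios were thus also more frequent among risen coding genes. Of 348 coding genes called at least 2-fold higher, 36.5% were under 0.4, at a median of 0.59. Of 9 such members 5 were, at a median of 0.31. Of these 9, all but Gm19589, Lncenc1 and Lockd passed the threshold through the knockout alone, so the rule favors their rise. Among members at 2 CPM in each group the medians were 0.30 for 15 risen, 0.71 for 5 fallen and 0.81 for 15 uncalled. Matched by symbol alone to the leading transcript's start, which was the matching tried first, 40 windows gave medians of 0.31, 0.75 and 0.83. Of the 33 risen members 17 lie under 5 CPM, and the part of level in this difference was not tested.

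**Figure D4:**
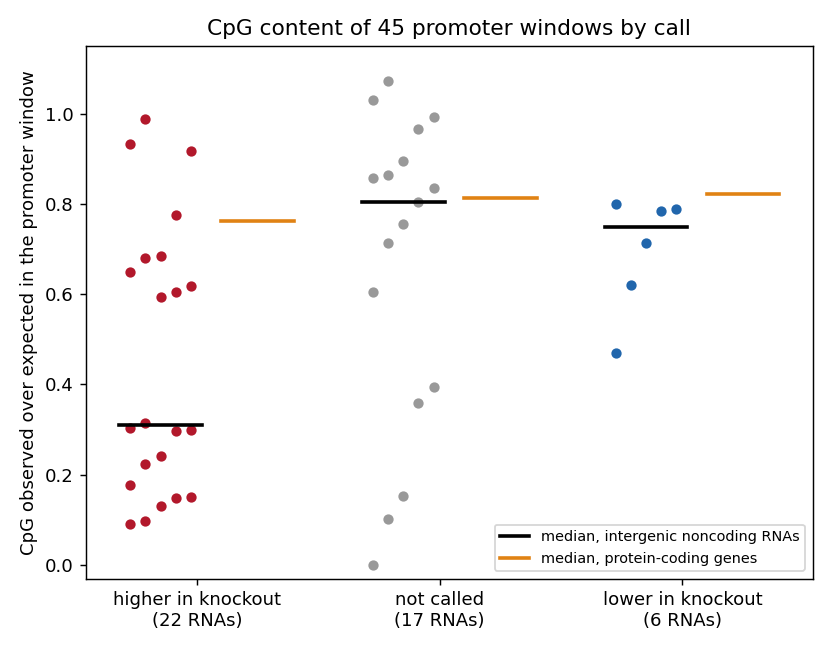
Observed over expected CG in the promoter windows of 45 RNAs by edgeR call (points; black line, median), with the median of protein-coding genes in orange. The risen RNAs have the lower median, 0.31, against 0.81 for those not called.

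The windows of the 2 largest rises with a window and of the risen member richest in CG show the range. They are RefSeq's, GRCm38.p6, plus strand, with every CG in capitals. 4930461G14Rik (chr9:58454923-58455222) has 2 CG, Lncenc1 (chr13:97434720-97435019) has 4, and C030037D09Rik (chr11:88718393-88718692) has 42.
4930461G14Rik: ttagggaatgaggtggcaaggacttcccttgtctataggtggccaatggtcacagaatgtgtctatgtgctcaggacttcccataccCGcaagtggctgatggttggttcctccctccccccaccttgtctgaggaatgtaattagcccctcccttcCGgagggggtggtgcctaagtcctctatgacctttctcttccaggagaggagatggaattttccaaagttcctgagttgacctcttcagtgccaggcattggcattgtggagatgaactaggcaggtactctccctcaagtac
Lncenc1: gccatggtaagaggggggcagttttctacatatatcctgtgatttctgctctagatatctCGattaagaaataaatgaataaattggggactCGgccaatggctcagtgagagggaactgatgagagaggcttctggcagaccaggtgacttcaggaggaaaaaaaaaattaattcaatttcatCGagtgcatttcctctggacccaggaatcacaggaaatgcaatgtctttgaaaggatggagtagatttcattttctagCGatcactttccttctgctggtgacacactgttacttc
C030037D09Rik: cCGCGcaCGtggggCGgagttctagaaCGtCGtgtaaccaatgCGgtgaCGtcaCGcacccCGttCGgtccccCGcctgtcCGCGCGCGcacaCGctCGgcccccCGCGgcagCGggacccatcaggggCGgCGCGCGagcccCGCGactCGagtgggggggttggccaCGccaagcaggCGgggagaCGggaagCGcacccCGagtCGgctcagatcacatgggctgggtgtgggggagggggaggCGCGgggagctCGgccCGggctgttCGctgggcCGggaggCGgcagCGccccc
C030037D09Rik averaged 3.47 CPM in knockout and 2.09 CPM in wild-type libraries (0.74 ± 0.16). The 3 windows were picked by size of rise or by CG and stand for no others. Gm6634, looked at after its values were seen, had a ratio of 0.0919 and rose by 0.60. Across the 22 risen members Spearman's rho between ratio and log2 fold change was -0.21, a description over genes that share the same libraries.

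Genes that process such RNAs or are known to bind them are read against the genes at 2 CPM or more. Of that set, which was not matched to the lists for level, 31.2% fell and 26.1% rose. The lists were not counted again with library totals as scaling. Of 22 tested genes of the nuclear RNA exosome and its adaptors, which degrade unstable nuclear transcripts, 13 fell and 0 rose, at a median log2 fold change of -0.17. Zfc3h1 fell by 0.43 ± 0.05 and Ncbp1, a cap-binding protein, by 0.42 ± 0.04. Of 19 Integrator and termination genes 12 fell and 1 rose, with Xrn2, a nuclear exonuclease, at 144 CPM in knockout and 230 CPM in wild-type libraries. Of 19 nonsense-mediated decay factors 10 fell, Ncbp1 counted again among them, and 1 rose. Of 11 genes of Polycomb repressive complex 2, 4 fell and 2 rose, with Jarid2 at 21.2 CPM in knockout and 36.0 CPM in wild-type libraries (-0.77 ± 0.07). The Polycomb count is near that background. The part of these genes in the levels of the noncoding RNAs was not tested.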

How the data were processed

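Per the labels' protocols, libraries were prepared from TRIzol-extracted RNA with poly-A selection and the SMARTer mRNA-Seq kit. FastQC, Trimmomatic, HISAT2 and GRCm38.p6 are named in the submitters' processing notes, without versions or roles. How reads were counted, whether strand was used and which annotation served: not given in the sources used here. Whole-number counts per transcript form the one deposited table. Of 115220 transcripts, 114332 (99.23%) matched GENCODE mouse release 21, and the other 888 (0.148% to 0.17% of a library's counts) were left out. Counts were summed per gene.

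Genotypes were compared with edgeR 4.0.16 in R 4.3.3 (quasi-likelihood F test, two-sided, TMM, filterByExpr, Benjamini-Hochberg over 15840 genes). SE is the absolute log2 fold change over the square root of F. CPM are TMM-normalized unless given as CPM of the library total. Alternatives were DESeq2 1.42.0, limma-voom 3.58.1, other scalings and filters, a replicate block, a test against 1.5-fold (glmTreat), the local shift as an offset, other membership thresholds and each library left out. Shared sequence was found with blastn 2.17.0 (97% identity, 100 bases). RefSeq genes were matched by symbol or synonym with overlapping position, 66 of 100, and promoter windows to any start with at least 10% of a gene's counts. That matching replaced a first one after its values were seen. On data simulated for this comparison with 15746 genes, the test found 82.1% of changes of 1.5-fold, 95.5% at 2-fold and 100% at 4-fold. Of its calls 1.07% were false. The simulation changed few genes, in both directions, whereas 47.2% of tested genes were called in the data. These rates need not hold for the data.

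The members and lists were chosen with earlier results of these data known. Genes named were Ehmt2, the members of the first 5 classes, the 10 most abundant per length, the 8 largest rises and falls without overlap and the members beside the threshold. Replicate numbers of the labels did not pair the samples: correlations of same-numbered deviations were -0.0226, -0.00184, 0.0751 and -0.0177.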

Additional observations from a re-analysis of the deposited data

Results flagged for a closer look

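The named members, Ehmt2 and the summed level were checked for a library that stood apart from the other 3 of its group, in 82 groups of 4. Chance alone flags about 1 in 20 such groups, and 3 were flagged. Wild-type replicate 2 was high for 4933404O12Rik, at 2.60 CPM where the other wild-type libraries had 1.67 to 1.81 CPM. Wild-type replicate 1 was low for Gm19589, at 2.45 CPM against 3.49 to 3.59 CPM in the others. It was also low for Gm20744, at 1.24 CPM against 1.77 to 1.84 CPM in the others. All 3 genes rose in the knockout, and every knockout library lay above these values.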

How the results depend on the processing

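The counts of 33 rises and 15 falls were within 1.5 times under DESeq2 (36 and 17), limma-voom (34 and 15), RLE factors (33 and 15), no filter (33 and 15) and the local shift taken out (33 and 15). Scaling by library totals gave 39 and 14, and over all tested genes 4543 rises and 2742 falls in place of 3742 and 3734. Rises numbered 17 among genes at 5 CPM or more in the fit, 16 with a membership threshold of 5 CPM and 12 in the test against 1.5-fold, which left 4 falls. Without members that share sequence, an alternative chosen after seeing the data, 9 fell. Requiring 2 CPM in each group, also chosen after seeing the data, left 24 rises and 14 falls. With each library left out, rises ranged from 31 to 37 and falls from 14 to 18. The numbers do not pair the samples, and the replicate block gave 33 rises and 15 falls, with Snhg6 newly called (edgeR, adjusted p = 0.0392).

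The difference in the summed level, 0.00589 percentage points, was -0.000771 without the ribosomal RNA-like genes and -0.00589 without the most abundant member, and -0.00844 to 0.0205 with each library left out. With the local shift out, 1700020I14Rik was at 0.0736, Gm14005 at 0.43 and Malat1 at 0.11 on the log2 scale. Malat1 was at 0.0258 with library totals and from -0.17 to 0.0450 with each library left out, the highest without knockout replicate 4. Gm26917 was at -0.0129 to 0.15, the lowest without wild-type replicate 1. The causes were not tested. Over the 40 named genes 621 values kept direction and call. With the sign kept, 27 gained a call and 14 lost one, 10 of these in the test against 1.5-fold. The sign changed in 6, of which 1 lost its call (1700020I14Rik) and 1 gained one (Gm14005).

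The low counts of members under 5 CPM limit the precision of their values.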
